A study of Caenorhabditis elegans with 6 samples.

Results

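Transcripts of the aminoacyl-tRNA synthetases were followed in whole *Caenorhabditis elegans* worms of the L4 stage, the last larval stage. The members were 35 genes, taken by gene symbol in the array annotation, and each was read from the probe set whose mean over the 6 arrays was highest. Of these, 32 had a probe set with a single gene symbol, out of 17118 genes measured. They comprised 20 of 21 genes listed as cytosolic, some of which also serve the mitochondrion, and 12 of 14 listed as mitochondrial. No probe set carried the symbol nars-2, vars-2 or wars-2. The gene glp-4, known to encode a valyl-tRNA synthetase, is measured without a synthetase symbol. It may be the gene listed as vars-2, but no table used here pairs the names, so it is not counted as a member. One member, cars-2, is annotated in RefSeq as a pseudogene.

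The comparison was between worms with the gk214 allele of the microRNA Argonaute gene alg-1, labelled alg-1(-), and N2, the wild type laboratory strain. There were 3 arrays of each genotype, described in the labels as independent replicates. All worms were synchronized and grown at 25 °C on OP50 bacteria, and both genotypes were collected at L4. The study concerns targets of ALG-1, and the comparison does not separate direct from indirect targets.

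Each aminoacyl-tRNA synthetase joins 1 kind of amino acid to its matching tRNAs, and the charged tRNA is then carried to the ribosome. Cytosolic and mitochondrial ribosomes are supplied by separate enzymes for most amino acids, although in animals some genes make both forms. The mitochondrial enzymes are nuclear-encoded and imported. Loss of charging is sensed in the cytosol by the kinase GCN-2, which acts on translation initiation.

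Of the synthetase genes, 16 fell and 1 rose in the mutant, against 34.6% of all genes that changed, 20.1% lower and 14.4% higher (limma, adjusted p under 0.05). Over the 22548 probe sets the share was 33.7%, with 18.9% lower and 14.8% higher. The falls of members were reductions of 16% to 31%. Among genes listed as cytosolic, 8 of 20 fell and 1 rose, with a median change of −0.16 log2. With glp-4, which had a change of −0.84 (adjusted p = 0.000443), the count would be 9 of 21 and the median −0.19. Among those listed as mitochondrial, 8 of 12 fell and 0 rose, with a median of −0.29. No mitochondrial member was higher at an unadjusted p under 0.05 either, and 9 were lower. Without cars-2, the mitochondrial count was 8 of 11 and the median −0.31. The median over all genes was −0.06, so that the cytosolic and mitochondrial medians lay 0.10 and 0.24 log2 below it.

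Of the 32 genes, 31 lay above the median expression of all probe sets, and among the 8525 genes above it 26.9% fell and 22.2% rose. The mutant arrays all lay below the wild type arrays for 12 cytosolic and 9 mitochondrial genes, and all above them for 3 and 1 (cars-2), while over all genes these shares were 29.6% and 19.1%. The number of falls depended on how the arrays were scaled. When arrays were centred on 18 hybridization control probe sets, the median over all genes moved from −0.06 to 0.08, and 10.6% of genes fell and 20.9% rose. On that scale 1 cytosolic gene (wars-1) and 4 mitochondrial genes (fars-2, dars-2, vars-1 and lars-2) fell, and 3 rose, the cytosolic genes pars-1 and aars-2 and the pseudogene cars-2. The medians were −0.025 and −0.158, still 0.10 and 0.24 below that of all genes, since centring moves every gene alike.

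**Figure D1:**
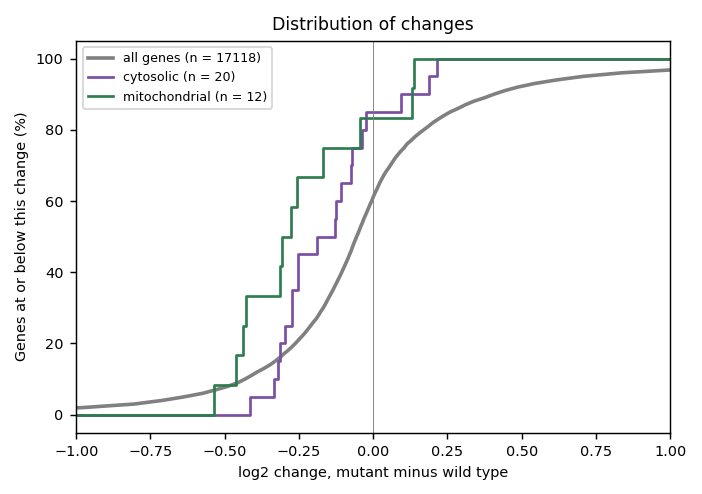
Cumulative share of genes (vertical axis, in %) at or below each log2 change, mutant minus wild type (horizontal axis), for all 17118 genes (grey), 20 cytosolic members (purple) and 12 mitochondrial members (green). Both member curves lie left of the grey curve around their medians of −0.16 and −0.29. The axis is cut at −1 and 1. Members changed by −0.535 to 0.214, and all genes by −4.102 to 4.251, partly beyond the axis.

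The mutated gene had 3 probe sets. The brightest read 5.90, 6.08 and 6.09 log2 in mutant replicates and 6.80, 6.83 and 6.65 in wild type replicates, a change of −0.73 (SE 0.0846, limma adjusted p = 0.000245). Another of them changed by −0.61 (adjusted p = 0.00977). The third read 6.33, 5.90 and 6.41 log2 in mutant replicates and 6.68, 6.34 and 5.91 in wild type replicates, with overlapping groups and a difference of −0.10 (adjusted p = 0.748). Whether any of these probes lie inside the deleted part is not known here. Correlations across probe sets ran from 0.994 to 0.996 between wild type arrays and were 0.998 between mutant arrays. The 3′ minus 5′ difference of the GAPDH controls was −0.58 log2 on wild type replicate 3 and −0.23 to −0.14 on the other 5 arrays. Markers of several cell types moved between the genotypes. Of 14 germline and oocyte markers, 12 fell and 0 rose (at unadjusted p, also 12 and 0). Their summed level was 12.16 to 12.30 log2 in the mutant and 12.89 to 12.98 in the wild type, and 0 of them lay below the median expression. Of 7 sperm markers, 6 fell and 0 rose (also 6 and 0 unadjusted), with sums of 7.45 to 7.54 and 8.79 to 9.11, and 5 of the 7 lay below the median expression. Of 6 epidermal markers, 3 rose and 1 fell, with sums of 14.09 to 14.16 and 13.49 to 13.55. Of 6 neuronal markers, 3 rose and 0 fell (4 and 0 unadjusted), with sums of 12.23 to 12.29 and 11.90 to 11.98, and 1 lay below the median. Of 6 intestinal markers, 1 rose and 3 fell (median change −0.12), while their sums were 13.99 to 14.02 and 13.88 to 13.93. Of 6 body wall muscle markers, 0 passed with limma (0 higher and 2 lower at unadjusted p under 0.05), with sums of 14.65 to 14.70 and 14.74 to 14.79. In RNA of whole worms, fewer cells of a type and less RNA per cell cannot be told apart, and the part of these shifts in the synthetase changes was not tested.

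Mitochondrial phenylalanyl-tRNA synthetase, encoded by fars-2, had the largest fall of the 32 genes. Its probe set read 7.93, 8.11 and 8.09 log2 in mutant replicates and 8.60, 8.57 and 8.56 in wild type replicates. The means were 8.04 ± 0.0963 against 8.58 ± 0.0209 (SD, n = 3), a change of −0.54 (SE 0.0738, limma adjusted p = 0.000666), to 0.69 of the wild type level. The mutant arrays spread more than the wild type arrays, and the groups did not overlap. For dars-2, which charges mitochondrial tRNA with aspartate, the values were 8.29, 8.36 and 8.27 log2 in mutant replicates and 8.87, 8.70 and 8.74 in wild type replicates. This made a change of −0.46 (SE 0.0743, limma adjusted p = 0.00152). For vars-1, the mitochondrial valyl enzyme, they were 8.53, 8.42 and 8.45 log2 in mutant replicates and 8.85, 8.89 and 8.98 in wild type replicates, a change of −0.44 (SE 0.0718, limma adjusted p = 0.00169). The leucyl gene lars-2 gave 6.22, 6.32 and 6.24 log2 in mutant replicates and 6.59, 6.71 and 6.75 in wild type replicates, a change of −0.43 (SE 0.0744, limma adjusted p = 0.00237). In each of these genes the highest mutant array was below the lowest wild type array, by more than the range within either genotype. These 4 genes passed the threshold under every alternative computed for them, leaving out any single array included. The setting without probe sets ending in _s_at or _x_at could not be computed for lars-2, whose only probe set ends in _s_at. With centring on the hybridization controls their changes were −0.40 (adjusted p = 0.00417), −0.33 (adjusted p = 0.018), −0.30 (adjusted p = 0.0233) and −0.29 (adjusted p = 0.0157). None of these settings read fars-2 from its second, dimmer probe set alone, where the change was −0.34 (limma adjusted p = 0.18).

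The other falls among mitochondrial enzymes were smaller. The tyrosyl gene yars-2 read 6.91, 6.81 and 6.95 log2 in mutant replicates and 7.25, 7.15 and 7.20 in wild type replicates, a change of −0.31 (SE 0.0723, limma adjusted p = 0.00951). The prolyl gene pars-2 read 7.96, 7.96 and 7.83 log2 in mutant replicates and 8.25, 8.24 and 8.18 in wild type replicates, a change of −0.31 (SE 0.0709, limma adjusted p = 0.00964). Both had groups that did not overlap, and both missed the threshold with centring on the hybridization controls (adjusted p = 0.188 and 0.165). The seryl gene sars-2 read 8.95, 9.05 and 9.02 log2 in mutant replicates and 9.18, 9.32 and 9.34 in wild type replicates, a change of −0.28 (SE 0.0741, limma adjusted p = 0.0191). The isoleucyl gene iars-2 read 6.75, 6.60 and 6.70 log2 in mutant replicates and 6.91, 6.90 and 7.01 in wild type replicates, a change of −0.26 (SE 0.0736, limma adjusted p = 0.0257). Calls of both genes rested on single arrays. Without mutant replicate 1, mutant replicate 3 or wild type replicate 2, sars-2 gave adjusted p = 0.0816, 0.0597 and 0.0593. Without mutant replicate 2, mutant replicate 3 or wild type replicate 3, iars-2 gave adjusted p = 0.101, 0.0714 and 0.0553.

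The remaining mitochondrial members did not pass. The arginyl gene rars-2 read 6.97, 6.98 and 7.05 log2 in mutant replicates and 7.26, 7.09 and 7.17 in wild type replicates, with a change of −0.17 (SE 0.0734, limma adjusted p = 0.111) and a 95% interval of −0.34 to −0.00. The groups did not overlap, but the gap between them was small. The alanyl gene aars-1 read 7.08, 6.85 and 7.03 log2 in mutant replicates and 6.94, 6.97 and 7.19 in wild type replicates, with a change of −0.05 (SE 0.096, limma adjusted p = 0.755) and overlapping groups. The glutamyl gene ears-2 read 7.0, 6.76 and 6.62 log2 in mutant replicates and 6.88, 6.81 and 6.29 in wild type replicates, a change of 0.14 (SE 0.16, limma adjusted p = 0.563). Its wild type replicate 3 was lowest of the 6 arrays, and without that array the change was −0.05 (adjusted p = 0.785). Its 95% interval, −0.23 to 0.50, was the widest of the 32. The pseudogene cars-2, which lies beside cars-1 in the RefSeq gene order, read 6.42, 6.41 and 6.45 log2 in mutant replicates and 6.14, 6.36 and 6.38 in wild type replicates, a change of 0.13 (SE 0.0827, limma adjusted p = 0.261).

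**Figure D2:**
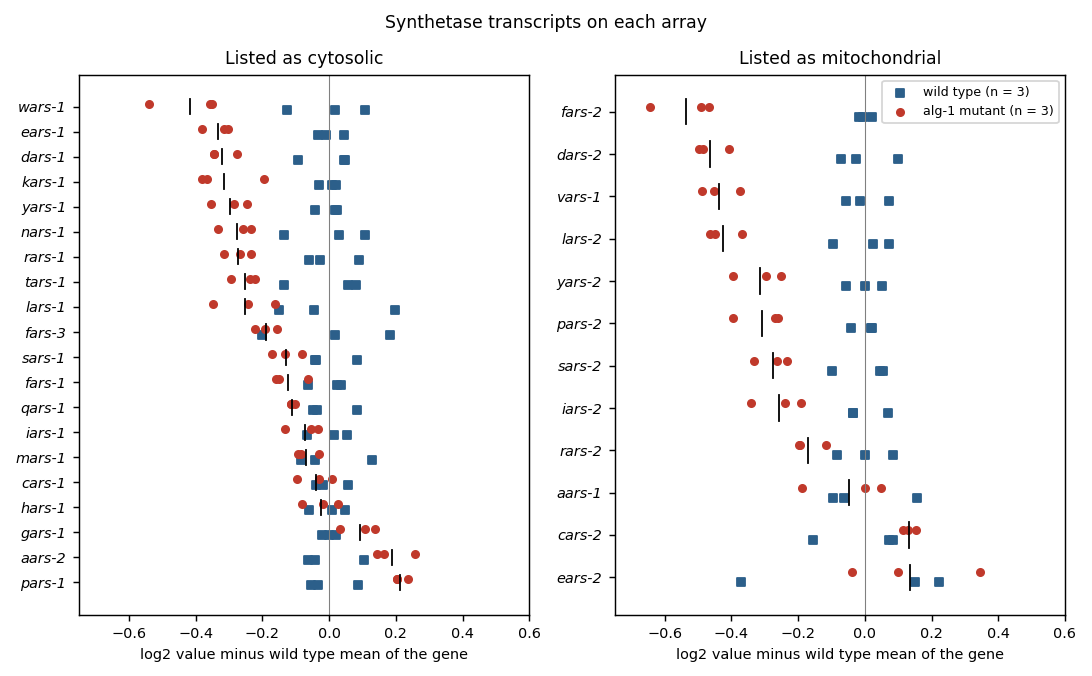
Log2 value on each array minus the gene's wild type mean (horizontal axis) for each member (vertical axis), with mutant arrays as red circles, wild type arrays as blue squares (3 each) and the mutant mean as a black bar. In 9 of the 12 mitochondrial rows all red circles lie left of all blue squares, and in 12 of the 20 cytosolic rows.

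Among cytosolic enzymes, the tryptophanyl gene wars-1 had the largest fall. It read 4.80, 4.99 and 4.99 log2 in mutant replicates and 5.22, 5.36 and 5.45 in wild type replicates, a change of −0.42 (SE 0.0885, limma adjusted p = 0.00652), to 0.749 of the wild type level. It was also the only synthetase below the median expression, at percentile 38. It passed the threshold under all 16 alternatives computed for it, which do not include the filter for genes above the median expression. The glutamyl gene ears-1 read 10.08, 10 and 10.07 log2 in mutant replicates and 10.37, 10.43 and 10.35 in wild type replicates, a change of −0.33 (SE 0.067, limma adjusted p = 0.0049). The aspartyl gene dars-1 read 10.85, 10.92 and 10.85 log2 in mutant replicates and 11.24, 11.10 and 11.24 in wild type replicates, a change of −0.32 (SE 0.0722, limma adjusted p = 0.00839). Mutant arrays of all 3 genes were below every wild type array. The lysyl gene kars-1, whose human counterpart supplies both compartments, read 11.39, 11.57 and 11.40 log2 in mutant replicates and 11.79, 11.74 and 11.78 in wild type replicates, a change of −0.32 (SE 0.0758, limma adjusted p = 0.0118). Mutant replicate 2 was the nearest to the wild type. Without mutant replicate 1 the adjusted p of kars-1 was 0.0565, and without mutant replicate 3 it was 0.0557. The tyrosyl gene yars-1 read 9.07, 9.11 and 9.0 log2 in mutant replicates and 9.38, 9.31 and 9.37 in wild type replicates, a change of −0.30 (SE 0.0681, limma adjusted p = 0.00953), with narrow ranges in both genotypes. With centring on the hybridization controls, wars-1 changed by −0.28 (adjusted p = 0.027). The other 4 did not pass, with changes of −0.20 (adjusted p = 0.122) for ears-1, −0.19 (adjusted p = 0.121) for dars-1, −0.18 (adjusted p = 0.123) for kars-1 and −0.16 (adjusted p = 0.171) for yars-1.

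Smaller falls were found for nars-1, rars-1 and tars-1. The asparaginyl gene nars-1 read 10.35, 10.45 and 10.43 log2 in mutant replicates and 10.79, 10.71 and 10.55 in wild type replicates, a change of −0.28 (SE 0.0823, limma adjusted p = 0.0306). The arginyl gene rars-1 read 10.32, 10.40 and 10.37 log2 in mutant replicates and 10.72, 10.61 and 10.57 in wild type replicates, a change of −0.27 (SE 0.0719, limma adjusted p = 0.018). The threonyl gene tars-1 read 10.15, 10.20 and 10.22 log2 in mutant replicates and 10.31, 10.52 and 10.50 in wild type replicates, a change of −0.25 (SE 0.0795, limma adjusted p = 0.0378). None of these groups overlapped, yet the calls did not hold when arrays were left out. The call of nars-1 was lost without any one of 5 arrays (adjusted p from 0.0642 to 0.114), all but wild type replicate 3. That of tars-1 was also lost without any one of 5 (0.0817 to 0.129), all but wild type replicate 1. That of rars-1 was lost without mutant replicate 1 or 3 (0.0752 and 0.0602). With centring on the hybridization controls their changes were −0.14 (adjusted p = 0.324), −0.14 (adjusted p = 0.284) and −0.12 (adjusted p = 0.327).

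The prolyl gene pars-1 was the member that rose. It read 10.76, 10.76 and 10.79 log2 in mutant replicates and 10.64, 10.50 and 10.52 in wild type replicates, a change of 0.21 (SE 0.0701, limma adjusted p = 0.044), and all mutant arrays were above the wild type arrays. It passed by a small margin, and leaving out any array but wild type replicate 1 ended the call (adjusted p from 0.0789 to 0.133). With quantile normalization the adjusted p was 0.0743, and with centring on the hybridization controls it was 0.015. In humans glutamyl and prolyl synthetase are parts of 1 protein, whereas in the worm they come from separate genes, ears-1 and pars-1, with changes of −0.33 and 0.21. The alanyl gene aars-2 read 10.32, 10.22 and 10.20 log2 in mutant replicates and 10.02, 10 and 10.17 in wild type replicates, a change of 0.19 (SE 0.0764, limma adjusted p = 0.0923), with mutant arrays above the wild type arrays. Without wild type replicate 3, which was its highest wild type array, the change was 0.24 (adjusted p = 0.0361), and without any other array it was 0.153 to 0.211 and did not pass. The glycyl gene gars-1 read 9.65, 9.68 and 9.58 log2 in mutant replicates and 9.55, 9.56 and 9.53 in wild type replicates, a change of 0.09 (SE 0.0669, limma adjusted p = 0.33) with a 95% interval of −0.06 to 0.24.

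The other 9 cytosolic genes, among them both subunits of the phenylalanyl enzyme, had changes of −0.25 to −0.02 and did not pass. The leucyl gene lars-1 read 9.25, 9.17 and 9.06 log2 in mutant replicates and 9.37, 9.61 and 9.26 in wild type replicates, a change of −0.25 (SE 0.101, limma adjusted p = 0.0871). Its wild type arrays spread widely. Without wild type replicate 3 the change was −0.33 (adjusted p = 0.0363), and without wild type replicate 2 it was −0.15 (adjusted p = 0.245). The seryl gene sars-1 read 11.57, 11.62 and 11.53 log2 in mutant replicates and 11.79, 11.66 and 11.66 in wild type replicates, and the glutaminyl gene qars-1 read 9.48, 9.49 and 9.48 log2 in mutant replicates and 9.68, 9.56 and 9.55 in wild type replicates. Their changes were −0.13 (95% interval −0.29 to 0.03) and −0.11 (−0.27 to 0.05). In both genes the mutant arrays were lower without overlap, but the gap was smaller than the range of the wild type arrays. The isoleucyl gene iars-1 changed by −0.07 (SE 0.0705, limma adjusted p = 0.47) and the methionyl gene mars-1 by −0.07 (SE 0.0782, limma adjusted p = 0.538). The cysteinyl gene cars-1 changed by −0.04 (SE 0.0691, limma adjusted p = 0.711) and the histidyl gene hars-1 by −0.02 (SE 0.0699, limma adjusted p = 0.829). Groups of these last 4 genes overlapped. Their 95% intervals were −0.23 to 0.09, −0.25 to 0.11, −0.20 to 0.12 and −0.18 to 0.14, so that changes of the size seen for fars-2 lay outside them. Under centring on the hybridization controls, the signs of these 4 genes and of sars-1, fars-1 and qars-1 turned positive, none past the threshold.

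**Figure D3:**
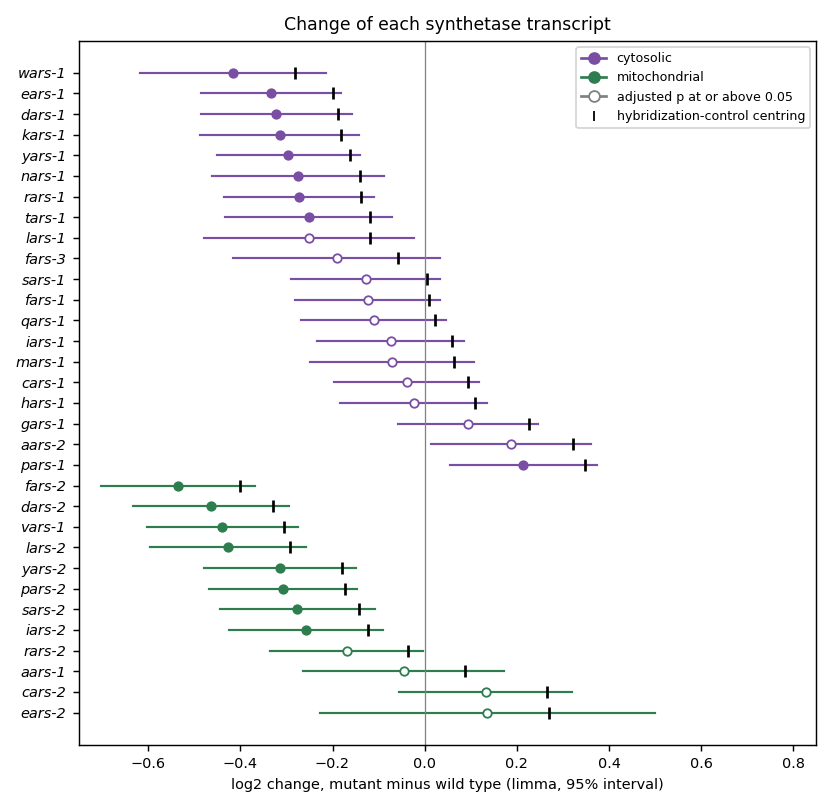
Log2 change, mutant minus wild type (horizontal axis), with its 95% interval from limma for each of the 32 genes (vertical axis), filled where the adjusted p is under 0.05. The black ticks give the change with centring on the hybridization controls, which lie 0.13 to the right of the circles for every gene.

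Cytosolic phenylalanyl-tRNA synthetase is built of α and β subunits, encoded by fars-1 and fars-3. The chosen fars-1 probe set read 10.86, 10.96 and 10.87 log2 in mutant replicates and 10.96, 11.05 and 11.06 in wild type replicates, a change of −0.12 (SE 0.0696, limma adjusted p = 0.211). Its other probe set gave −0.24 (SE 0.0785, limma adjusted p = 0.0421). For fars-3 the chosen probe set read 10.40, 10.47 and 10.43 log2 in mutant replicates and 10.81, 10.64 and 10.43 in wild type replicates, a change of −0.19 (SE 0.099, limma adjusted p = 0.177), with wild type replicate 3 at the level of the mutant arrays. The other fars-3 probe set read 10.11, 10.17 and 10.14 log2 in mutant replicates and 10.64, 10.60 and 10.70 in wild type replicates, a change of −0.50 (SE 0.0668, limma adjusted p = 0.000549). In that probe set wild type replicate 3 was the highest of the 6 arrays, so the call for the β subunit depended on the probe set. Without wild type replicate 3 the chosen probe set changed by −0.29 (adjusted p = 0.0241), and without wild type replicate 1 it gave −0.10 (adjusted p = 0.424). The mean over both probe sets changed by −0.35 (adjusted p = 0.00439).

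Probe sets were compared within the 10 genes that had more than 1. In 9 of them all probe sets had changes of a single sign under the deposited scaling, all negative, and 7 gave the same call from each probe set. The 3 exceptions were fars-1, fars-2 and fars-3. For fars-2 the dimmer probe set read 6.48, 6.50 and 6.34 log2 in mutant replicates and 7.18, 6.80 and 6.35 in wild type replicates, a change of −0.34 (SE 0.176, limma adjusted p = 0.18). Its wild type arrays ranged far more widely than those of the chosen probe set, with replicate 3 lowest. All 3 yars-1 probe sets fell, with changes of −0.30, −0.26 and −0.38. Both probe sets fell for nars-1 (−0.28 and −0.32), pars-2 (−0.31 and −0.34) and iars-2 (−0.26 and −0.21). The dimmer iars-2 probe set lay low, at percentile 22.3 of expression. The second probe set of aars-2 differed by −0.01 (adjusted p = 0.958), against 0.19 for the chosen one. Of the 32 chosen probe sets 17 end in _s_at or _x_at, which mark probes that match several transcripts, and 8 of these fell.

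**Figure D4:**
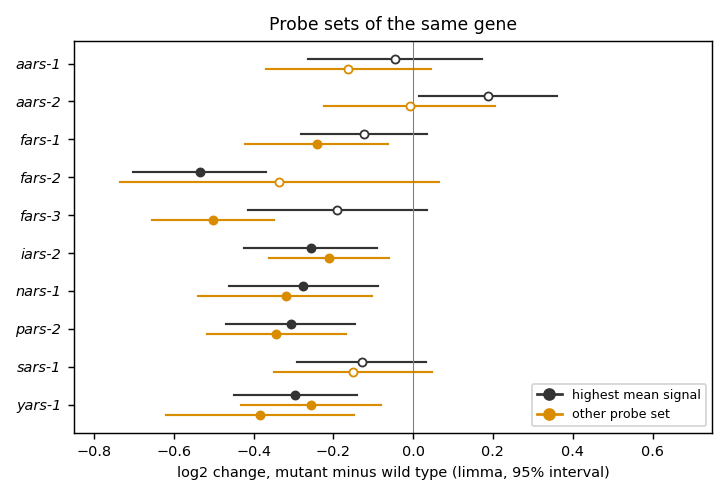
Log2 change with its 95% interval (horizontal axis) for every probe set of the 10 genes with more than 1 (vertical axis), black for the probe set with the highest mean signal, orange for the others, and filled where the adjusted p is under 0.05. The intervals overlap within each gene, and fars-3 has changes of −0.19 and −0.50.

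For 10 amino acids a single cytosolic and a single mitochondrial gene were measured, and these were compared as pairs. Phenylalanine was left out, as both fars-1 and fars-3 encode its cytosolic enzyme. Their chosen probe sets changed by −0.124 and −0.19, and that of the mitochondrial gene fars-2 by −0.535. The mitochondrial gene had the more negative change in 7 pairs and the cytosolic gene in 3. The difference, cytosolic minus mitochondrial change, was largest for proline, at 0.52 log2, where pars-1 rose and pars-2 fell. For glutamate it was −0.47, since ears-1 fell and ears-2 had a change of 0.14. Alanine gave 0.23, isoleucine 0.18, leucine 0.17, serine 0.15 and aspartate 0.14. Tyrosine gave 0.02, with both genes lower, arginine −0.10 and cysteine −0.17, the last with the pseudogene cars-2 as the second gene. An exact two-sided permutation test of 3 against 3 arrays cannot give a p below 0.1. Alanine, aspartate, glutamate, isoleucine and proline reached that p, and their value after adjustment over the 10 pairs was 0.2, so the test could not pass the threshold and does not show whether any pair differed. Centring of the arrays moves both genes of a pair alike and leaves these differences as they are, whereas quantile normalization does not.

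**Figure D5:**
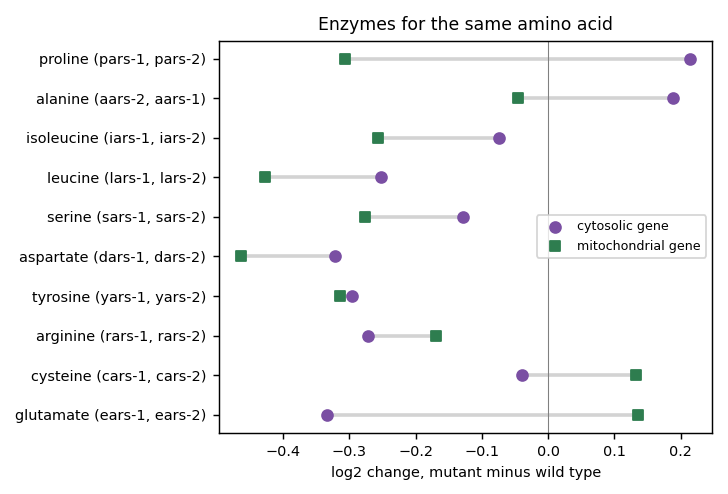
Log2 change, mutant minus wild type (horizontal axis), of the cytosolic gene (purple circle) and the mitochondrial gene (green square) for each of 10 amino acids (vertical axis). The square lies left of the circle in 7 rows, by most for proline (0.52).

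Synthetases fall into classes I and II by the fold of their catalytic domain. Of 9 cytosolic class I genes, 4 fell and 0 rose (5 and 0 at unadjusted p; median −0.25), and of 11 class II genes, 4 fell and 1 rose (median −0.13). Among mitochondrial members, 4 of 7 class I genes fell (median −0.26) and 4 of 5 class II genes (median −0.31). In mammals 9 cytosolic synthetases are held together in the multisynthetase complex. Of their worm counterparts 4 fell and 1 rose (median −0.25), and of the other 11 cytosolic genes, 4 fell (median −0.13). Over all genes 20.1% fell and 14.4% rose, with a median of −0.06. Under hybridization-control centring wars-1, of class I and outside the complex, was the one cytosolic gene still lower. The differences between classes and between these groups were not tested.

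Genes that act before and after the synthetases were taken from lists of the pathway, and their counts stand beside 20.1% lower and 14.4% higher over all genes, with a median of −0.06. With centring on the hybridization controls the shares over all genes were 10.6% and 20.9%, with a median of 0.08. Of the listed symbols, 17 of 24 matched a measured gene for tRNA maturation, export and modification, and 9 of 15 for RNA polymerase III. Of 17 genes for maturation, export and modification of tRNA, 11 fell and 0 rose (13 and 1 at unadjusted p), with a median of −0.32. They included elpc-2 and elpc-3, subunits of the Elongator complex that modifies the wobble base, with changes of −0.66 (SE 0.11, limma adjusted p = 0.00193) and −0.53 (SE 0.0954, limma adjusted p = 0.00275). The tRNA ligase gene rtcb-1 changed by −0.47 (SE 0.082, limma adjusted p = 0.0023) and the pseudouridine synthase gene pus-1 by −0.43 (SE 0.0724, limma adjusted p = 0.00185). Under hybridization-control centring 6 of the 17 fell and 1 rose, and all 4 named genes were among those that fell. Of 9 genes of RNA polymerase III and its initiation factors, which transcribe tRNA genes, 6 fell and 0 rose (7 and 0 unadjusted; median −0.29). The largest fall was that of the second largest subunit gene rpc-2, with −0.48 (SE 0.0686, limma adjusted p = 0.000807). It was followed in order of p by rpc-11 (−0.43), rpac-40 (−0.45) and tftc-3 (−0.29). Under that centring 3 of the 9 fell and 0 rose.

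The list for carriers of charged tRNA, and for elongation factors that act on them, held 11 symbols, some of them older names of measured genes. Of the 8 genes measured, 3 fell and 0 rose (5 and 0 unadjusted, median −0.19). Those that fell were tsfm-1 (change −0.42 (SE 0.0919, limma adjusted p = 0.00768)) and tufm-2 (−0.27), which encode mitochondrial elongation factors, and eef-1A.2 (−0.26), for cytosolic elongation factor 1A. Its paralog eef-1A.1 read 13.79, 13.73 and 13.76 log2 in mutant replicates and 13.75, 13.72 and 13.72 in wild type replicates, with a change of 0.03 (adjusted p = 0.784). Under hybridization-control centring tsfm-1 alone of the 8 fell. Of 5 measured genes that sense uncharged tRNA or act in the integrated stress response, 1 rose and 2 fell (10 symbols were listed, older names included). The transcription factor gene atf-4 rose, reading 10.80, 10.77 and 10.89 log2 in mutant replicates and 10.55, 10.47 and 10.57 in wild type replicates, a change of 0.29 (SE 0.0706, limma adjusted p = 0.012). The GCN-2 partner gene gcn-1 fell by 0.349 and the initiation factor gene eif-2Bgamma by 0.411, log2, and neither passed with centring on the hybridization controls, whereas atf-4 did. The kinase gene gcn-2 had a change of 0.06 (adjusted p = 0.567). Of 10 genes of amino acid sensing and TOR signalling, 1 rose and 2 fell, which is near the shares over all genes. The folliculin gene flcn-1 rose, with 0.67 (SE 0.115, limma adjusted p = 0.00218), and the S6 kinase gene rsks-1 (−0.43) and the Rag GTPase gene raga-1 (−0.28) fell. Under the same centring flcn-1 alone of the 10 passed.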

How the data were processed

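RNA of 3 alg-1(gk214) and 3 N2 samples, about 5 µg each per the labels' protocols, was hybridized to single-colour Affymetrix arrays. The authors deposited log2 values, 1 for each probe set on each array. Per the submitters' processing notes they used Affymetrix Power Tools. How they corrected, normalized and summarized the signals is not stated in the labels. The log2 scale was read from the values (3.144 to 14.915), and array medians were 6.007 to 6.047, so values were used as deposited. No detection calls were used, and precision is limited by the few arrays.

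Of 22625 probe sets, 77 controls were left out. The platform annotation gave symbols, which were renewed through RefSeq's WBcel235 table by gene identifier. This table was used for names, gene type and neighbours. The 2 genotypes were compared by limma 3.58.1 (R 4.3.3; lmFit, eBayes, two-sided), with Benjamini-Hochberg adjustment over 22548 probe sets and a threshold of 0.05. Changes are mutant minus wild type, with standard errors (SE) from limma. All 35 members are named, with up to 4 genes of smallest p among those called in each other list. Members and lists were chosen with earlier results of these data known. Compartments were assigned by hand from gene symbols and general knowledge. Pathway symbols without a match counted as not measured, although some are older names of measured genes. A simulation with 22548 probe sets changed only 67 by 0.5 log2, 67 by 1 log2 and 66 by 2 log2. In it limma recovered 55.2%, 98.5% and 100% of these changes, and 11 of 180 calls were false. The data gave 7591 calls, so the adjustment was stricter in the simulation, and these rates do not describe the data. Sequences are not shown.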

Additional observations from a re-analysis of the deposited data

How the results depend on the processing

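The counts and medians of the 2 compartments were recomputed under other settings, of which the leave-out of cars-2 and the inclusion of glp-4 (cytosolic median −0.190) were added after the data were seen. Centring on the hybridization controls moved them most, to 2 higher and 1 lower cytosolic genes (median −0.025) and 1 higher (the pseudogene cars-2) and 4 lower mitochondrial genes (median −0.158). On that scale the changes of cars-1 (0.095), fars-1 (0.010), hars-1 (0.110), iars-1 (0.060), mars-1 (0.063), qars-1 (0.023), sars-1 (0.006) and aars-1 (0.088) turned positive, none past the threshold, and 68.8% of the 7060 probe sets called were higher, against 44.0% of 7591. Without probe sets ending in _s_at or _x_at, 4715 probe sets passed, 0 cytosolic genes were higher and 5 of 10 lower (median −0.213), and 5 of 8 mitochondrial genes were lower. At a threshold of 0.01, 4767 probe sets passed, with 0 cytosolic genes higher and 4 lower. The count of higher cytosolic genes was 0 with quantile normalization, where the mitochondrial median was −0.341, and 2 with array weights. The cytosolic median was −0.128 above the median expression (19 genes) and −0.217 when each gene was the mean of its probe sets. Leaving out each array gave 0 to 1 higher and 4 to 9 lower cytosolic genes, with medians of −0.187 to −0.127, and 6 to 8 lower mitochondrial genes. Both lows of 4 came without mutant replicate 1 or 3. Signs turned for aars-1 without mutant replicate 2 (0.024) or wild type replicate 3 (0.033; range −0.094 to 0.033), for hars-1 without mutant replicate 3 (0.005) or wild type replicate 2 (0.001; range −0.054 to 0.005), and for ears-2 without wild type replicate 3 (−0.049; range to 0.247). Of 529 recomputed changes of single members, 460 kept direction and call, 46 lost a call, 10 gained one and 13 changed sign. The causes were not tested. With the replicate number as a block, 0 cytosolic genes were higher and the other counts stayed within 1.5 times. Same-numbered arrays deviated together with correlations of 0.213, 0.126 and 0.081, so the numbers were not taken as pairs. Compartments could not be checked against RefSeq product descriptions, so that alternative was not run. Filters at the 25th percentile, an intensity trend and median centring kept all counts within 1.5 times and all directions.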

Other observations

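Genes outside the member list also bear on tRNA charging, and they were picked after the annotation was seen. The gene glp-4, known to encode a valyl-tRNA synthetase needed for germline growth, carried no synthetase symbol on the platform. Its probe set read 9.12, 9.19 and 9.08 log2 in mutant replicates and 10.22, 9.85 and 9.84 in wild type replicates. Its change of −0.84 (SE 0.108, limma adjusted p = 0.000443) was more negative than that of any of the 32 members, and with centring on the hybridization controls it was −0.71 (adjusted p = 0.00121). It is read from a single probe set ending in _s_at. In the same worms 12 of 14 germline and oocyte markers fell, and the part of this in the glp-4 value was not tested.

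The gene mars-2, by its symbol a second methionyl-tRNA synthetase, neighbours yars-1 in the RefSeq gene order. Its brightest probe set read 6.07, 5.95 and 6.06 log2 in mutant replicates and 6.46, 6.26 and 6.43 in wild type replicates, a change of −0.35 (SE 0.0805, limma adjusted p = 0.00903). Its other probe sets gave −0.14 and −0.09 and did not pass (adjusted p = 0.342 and 0.623), and under hybridization-control centring the first gave −0.22 (adjusted p = 0.129). A probe set annotated to both chk-2 and fars-2, used for neither gene, had a change of −0.10 (adjusted p = 0.392) at percentile 19 of expression.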
